A study of Mus musculus with 15 samples.

Results

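The histone cluster genes are the replication-type histone genes whose symbols begin with Hist1h, Hist2h, Hist3h or Hist4h. They were taken by symbol, with no use of any measured difference, and 67 of the 32372 genes in the deposited matrix carried such a symbol. Of these, 58 had at least 30 unique molecular identifiers (UMIs, each the tag of 1 captured RNA molecule) in all cells together. These 58 members comprised 6 linker histone genes and 52 core histone genes, of which 14 encode H2A, 16 H2B, 10 H3 and 12 H4. The other 9 symbols held 24 (Hist1h3g), 20 (Hist1h4f), 18 (Hist1h2an), 4 (Hist1h3h) and 1 UMI (Hist2h2aa2), or 0 UMIs (Hist1h2aa, Hist1h2ah, Hist1h2ba and Hist1h2bq), and are not described further. Together, the 58 members gave 500960 of 707518630 UMIs, or 0.0708%.

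The study asked how microglia, the resident macrophages of the brain, respond over time to an antibody that activates the receptor TREM2. ATV:4D9 is a TREM2 antibody whose Fc part also binds the human transferrin receptor, which carries it across the blood vessel wall into the brain. All animals were male C57BL/6J mice aged 3.5 months with the hTfR KI genotype, a knock-in of the human transferrin receptor part that this Fc needs, so the controls carried it as well. Each mouse received 1 dose of 10 mg/kg, and single-cell RNA-seq was run on CD45 bead-enriched cells of the cortex and hippocampus. The 5 groups of 3 mice each were ATV:RSV, the control antibody, 1 day after dose, and ATV:4D9 at 1, 7, 14 and 28 days after dose. Controls were taken at day 1 alone, so at days 7, 14 and 28 the time since dosing and the antibody cannot be told apart. Each of 3 batches held 1 mouse of every group.

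Core histones H2A, H2B, H3 and H4 form the protein spool around which DNA is wrapped in a nucleosome, and the linker histone H1 binds the DNA where it enters and leaves that spool. Most genes of these clusters are switched on when DNA is copied in S phase, and their messenger RNAs end in a hairpin bound by the protein SLBP in place of a poly(A) tail. Some cluster genes also give longer, polyadenylated transcripts, including in cells that do not divide. The libraries were primed on poly(A), so a hairpin-ended transcript without a tail is captured poorly, and all values below refer to captured molecules.

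Of the 58 members, 46 lie on chromosome 13 within 2.0486 Mb (21715763 to 23764406, mm10, from Hist1h2bl to Hist1h1a). The others lie on chromosome 3 (9 members), 11 (2 members) and 6 (1 member). An exact 16-base hairpin was found past the stop codon in the annotated transcripts (GENCODE M21) of 42 members, and 6 versions of it occurred. The hairpins of 9 members with a large share of the UMIs, or named below, are printed 5′ to 3′ on the transcript strand with the hairpin in capitals, because 6 of these genes share 1 exact site while their RNA levels did not move in 1 direction.
Hist1h1c: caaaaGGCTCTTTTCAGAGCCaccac
Hist1h1e: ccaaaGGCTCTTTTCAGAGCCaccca
Hist1h1d: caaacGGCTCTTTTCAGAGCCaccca
Hist3h2a: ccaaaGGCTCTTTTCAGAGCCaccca
Hist1h2ap: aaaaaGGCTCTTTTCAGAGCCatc
Hist1h3a: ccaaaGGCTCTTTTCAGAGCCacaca
Hist1h4d: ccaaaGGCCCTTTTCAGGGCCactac
Hist1h4i: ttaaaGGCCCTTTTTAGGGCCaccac
Hist1h3c: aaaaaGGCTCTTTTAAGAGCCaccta
The first version was shared by 25 members, among them Hist1h1c, Hist1h1e, Hist1h1d, Hist3h2a, Hist1h2ap and Hist1h3a. The version of Hist1h4d was found in 6 members, all of them H4 genes, that of Hist1h4i in 2 and that of Hist1h3c in 6. What follows the hairpin differed more. The annotated transcript ran 840 bases past it in Hist1h1c, 1153 in Hist1h1e, 4884 in Hist1h1d, 1643 in Hist3h2a, 770 in Hist1h4d and 330 in Hist1h4i, but 3 bases in Hist1h2ap, 37 in Hist1h3a and 74 in Hist1h3c. No exact hairpin was found in the annotated transcripts of Hist1h1a and Hist1h1b, which end 48 and 0 bases past the stop codon, or of Hist1h2bc, which ends 742 bases past it. In 9 members with no hairpin, Hist1h1b among them, the annotated transcript ends at the stop codon. No bases past it are annotated there, so whether a hairpin follows cannot be seen.

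The linker genes also differed from the core genes in the letters of their promoters. In the RefSeq promoters (GRCm38.p6, 300 bases around the start, 53 of 58 members matched, both strands searched), AAACACA was found in 5 of 6 linker genes and in 2 of 47 core genes (4.26%), against 7.18% of all 32851 promoters. CCAAT was found in 6 of 6 linker genes and 83.0% of core genes, against 37.4% of all promoters. TATAAA was found in 4 of 6 linker genes and 53.2% of core genes, against 13.6%. The 150 bases before the start are printed for 5 linker genes, 5′ to 3′ on the strand of the gene, with these motifs in capitals on whichever strand they lie, to show the motifs in 4 genes that changed in opposite directions below and in Hist1h1t, which was too scarce to test. Hist1h1d is left out because its RefSeq start lies inside the GENCODE transcript. They lie at chr13:23738657-23738806 (plus strand, Hist1h1c), chr13:23622559-23622708 (minus, Hist1h1e), chr13:21780626-21780775 (minus, Hist1h1b), chr13:23763518-23763667 (plus, Hist1h1a) and chr13:23695661-23695810 (plus, Hist1h1t).
Hist1h1c: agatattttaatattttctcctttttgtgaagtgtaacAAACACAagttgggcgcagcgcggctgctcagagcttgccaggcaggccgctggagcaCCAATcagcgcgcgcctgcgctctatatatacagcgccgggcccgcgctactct
Hist1h1e: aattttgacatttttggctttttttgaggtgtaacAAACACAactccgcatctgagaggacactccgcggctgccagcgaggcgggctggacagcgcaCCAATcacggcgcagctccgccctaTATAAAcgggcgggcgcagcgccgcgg
Hist1h1b: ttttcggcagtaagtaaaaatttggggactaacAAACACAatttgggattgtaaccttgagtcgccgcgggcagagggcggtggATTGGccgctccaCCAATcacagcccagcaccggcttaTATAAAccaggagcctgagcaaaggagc
Hist1h1a: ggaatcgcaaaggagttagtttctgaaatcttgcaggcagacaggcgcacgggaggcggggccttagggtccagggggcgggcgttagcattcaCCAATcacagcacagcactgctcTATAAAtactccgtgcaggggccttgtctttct
Hist1h1t: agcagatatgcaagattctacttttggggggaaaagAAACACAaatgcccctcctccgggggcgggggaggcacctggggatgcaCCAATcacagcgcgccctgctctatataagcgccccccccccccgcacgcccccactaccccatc
AAACACA began 112 bases before the start in Hist1h1c, 115 in Hist1h1e, 117 in Hist1h1b and 114 in Hist1h1t, and was not among these letters in Hist1h1a. A match of letters describes the sequence and is not evidence of a bound factor.

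The files held 102043 cells, 5667 to 7596 per mouse, and 32341960 to 70307384 UMIs per mouse. The 3 ATV:4D9 day 1 libraries stood apart from the other 12 in depth and in list genes. Their median cell held 8202 to 8996 UMIs against 4975 to 5750 in ATV:RSV, and 72.6% to 78.4% of their cells carried at least 2 distinct genes of an S phase or a G2/M list (list cells below) against 7.04% to 7.62% in ATV:RSV. The median mitochondrial share was 3.96% to 4.50% against 3.11% to 3.38% in ATV:RSV, but the day 7 libraries (3.49% to 4.04%) overlapped those of day 1. The microglial markers P2ry12 and Tmem119 were present in all mice of both groups, P2ry12 at 2032 to 2073 counts per 1000000 UMIs (CPM, TMM-scaled) in ATV:RSV and 788 to 883 CPM at day 1, and Tmem119 at 1108 to 1205 CPM and 837 to 979 CPM. No marker list of another cell type was at 0, and the monocyte list (Ly6c2, Ccr2, Plac8 and Chil3) was at 15.1 to 19.4 CPM at day 1 against 4.13 to 10.7 CPM in ATV:RSV. Among the other lists of other cell types, T cell (0.0716 to 0.307 CPM in ATV:RSV, 0.377 to 0.877 at day 1) and OPC (0.145 to 0.501 and 1.03 to 1.37) were higher at day 1 with no overlap. Oligodendrocyte (44.0 to 58.0 and 31.3 to 35.3), neuron (8.11 to 10.7 and 4.95 to 6.72) and endothelial lists (19.0 to 24.9 and 13.6 to 17.9) were lower with no overlap. The part of depth, of these markers and of the list cells in the histone results was not tested beyond the values given beside each. In sums over a mouse, fewer cells of a type and less RNA per cell cannot be told apart.

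Linker genes gave 248458 UMIs, 49.6% of those of all members, although they are 6 of 58. Hist1h1c alone held 178086, followed by Hist1h1e with 45342, Hist1h1d with 21302, Hist1h1b with 2805, Hist1h1a with 848 and Hist1h1t with 75. The core genes gave 252502 UMIs. H2B took 28.4% of the member UMIs, H2A 12.9%, H4 6.83% and H3 2.26%. The UMIs were held by few genes in each class, with Hist1h2bc at 120335, Hist3h2a at 29992, Hist1h2ap at 18039, Hist1h4i at 12761, Hist1h2be at 11835 and Hist1h4d at 11646, and the 12 members with most UMIs held 92.3%. The 3′ kit counts 1 end per molecule, so these are counts of captured molecules and not levels per length.

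One day after dose, the 3 abundant linker genes were lower in ATV:4D9 mice and the 2 scarce ones that could be tested were higher. Hist1h1c (chromosome 13, 23738808 to 23740367), the linker gene with most UMIs, was at 276, 335 and 285 CPM in the 3 ATV:RSV mice and at 104, 83.6 and 87.9 CPM in the 3 ATV:4D9 mice. The groups did not overlap, and the log2 fold change was -1.70 ± 0.17 (SE, n = 3 mice a group, adjusted p = 2.83e-07, limma-voom over all genes tested). Hist1h1e (23620629 to 23622558) was at 65.7, 78.8 and 72.7 CPM in ATV:RSV and 43.7, 46.9 and 50.4 CPM in ATV:4D9. Its change was smaller, at -0.62 ± 0.13 (adjusted p = 0.000387), again with no overlap. Hist1h1d (23553262 to 23560686) was at 27.4, 46.6 and 31.2 CPM against 24.7, 18.6 and 17.8 CPM, a change of -0.75 ± 0.30 (adjusted p = 0.0396). This call did not hold in several other fits, among them those without ATV:RSV replicate 2, where it was -0.53 with an adjusted p of 0.17, or without ATV:RSV replicate 3 or ATV:4D9 day 1 replicate 2 or 3.

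Hist1h1a and Hist1h1b, linker genes whose annotated transcripts end within 48 bases of the stop codon, went the other way. Hist1h1b (21779883 to 21780625), which was chosen after its values were seen, was at 2.78, 1.11 and 0.883 CPM in ATV:RSV and at 9.03, 14.98 and 14.80 CPM in ATV:4D9 at day 1. It rose by 3.10 ± 0.46 on the log2 scale (adjusted p = 1.82e-05). Hist1h1a (23763666 to 23764406) was at 0.736, 0.748 and 0.787 CPM against 2.33, 3.43 and 2.74 CPM, a rise of 1.87 ± 0.21 (adjusted p = 6.82e-07). Both stayed under the 3 abundant linker genes in each group, Hist1h1b coming closest to Hist1h1d at day 1. The summed H1 class fell from 408.9 ± 47.6 CPM (SD, n = 3) to 175.1 ± 8.30 CPM. Hist1h1t, the linker gene best known from the testis, had too few UMIs to test, with 0 to 13 in a mouse.

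**Figure D1:**
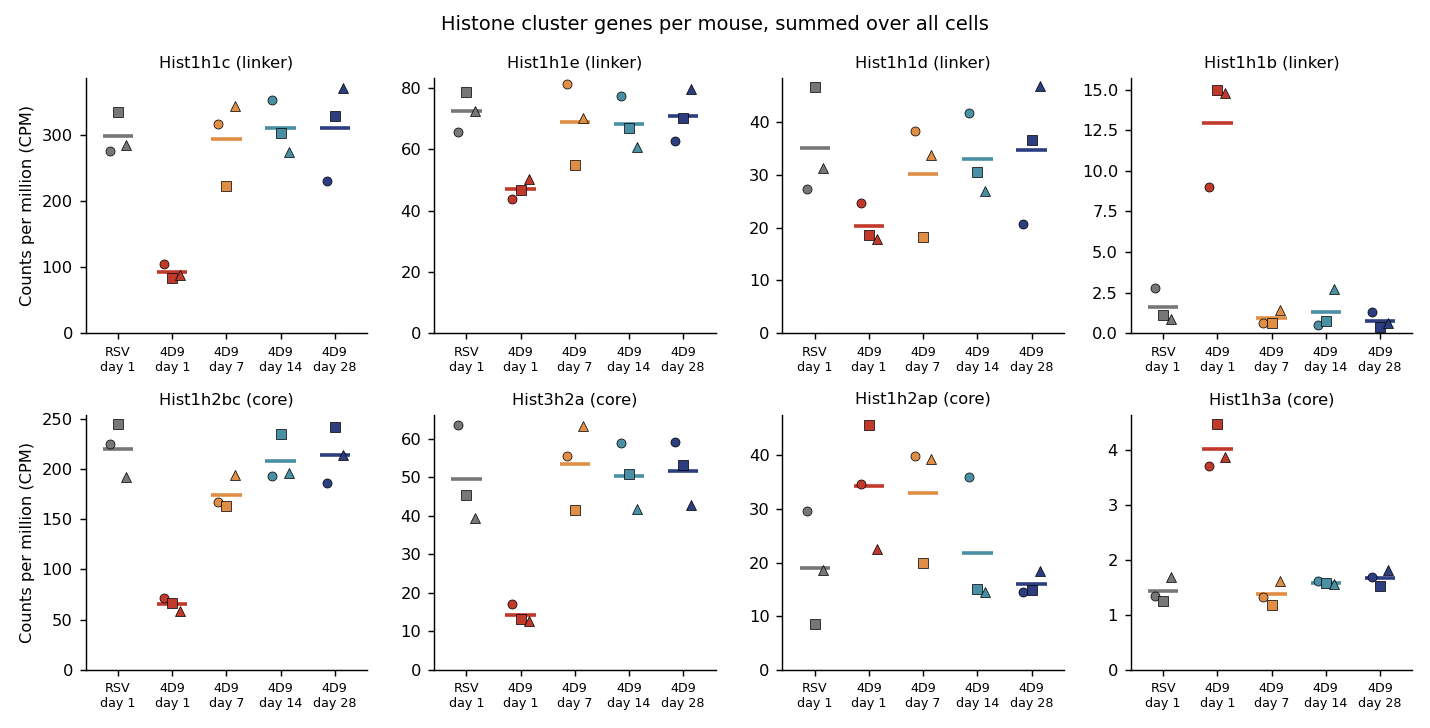
TMM-scaled CPM of 8 members in each of the 15 mice, with 1 panel a member and the 5 groups along the horizontal axis. Circles, squares and triangles are replicates 1, 2 and 3, and the line is the group mean. Hist1h1c, Hist1h1e, Hist1h2bc and Hist3h2a are lowest in the 3 ATV:4D9 day 1 mice, Hist1h1b and Hist1h3a are highest there, and the groups of Hist1h2ap overlap.

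Among the core genes, the H2B and the H2A gene with most UMIs were lower at day 1. Hist1h2bc (chromosome 13, 23684199 to 23692908), the H2B gene with most UMIs, was at 225, 244 and 192 CPM in ATV:RSV and 71.2, 66.6 and 58.9 CPM in ATV:4D9 at day 1. The log2 fold change was -1.74 ± 0.11 (adjusted p = 1.48e-09), the lowest adjusted p among the members. Hist3h2a (chromosome 11, 58954685 to 58956830), an H2A gene of the small cluster on that chromosome, fell from 63.5, 45.3 and 39.4 CPM to 17.0, 13.3 and 12.7 CPM, with a log2 fold change of -1.76 ± 0.21 (adjusted p = 1.65e-06). Its neighbour Hist3h2ba, an H2B gene, was at 4.60, 4.39 and 3.91 CPM and then 1.60, 1.42 and 1.88 CPM, a change of -1.42 ± 0.17 (adjusted p = 1.68e-06). Hist1h2be, another H2B gene, fell from 20.2, 23.4 and 20.3 CPM to 9.30, 7.19 and 6.84 CPM, by 1.44 ± 0.15 on the log2 scale (adjusted p = 2.85e-07). All 4 genes were lower in every ATV:4D9 day 1 mouse than in every ATV:RSV mouse. Such separation was not counted over all genes, of which 34.6% passed as lower at day 1. Hist1h2ac, an H2A gene, also passed, at -0.87 ± 0.24 (adjusted p = 0.00489).

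The H2A gene with the second most UMIs did not follow them. Hist1h2ap (21833026 to 21833507) was at 29.7, 8.61 and 18.6 CPM in ATV:RSV and 34.6, 45.6 and 22.6 CPM in ATV:4D9 at day 1. The groups overlapped, the change of 0.96 ± 0.41 just passed (adjusted p = 0.0481), and it was 0.49 with an adjusted p of 0.27 without ATV:RSV replicate 2. The call was also lost without ATV:RSV replicate 3 or ATV:4D9 day 1 replicate 1 or 2, and with edgeR (adjusted p = 0.0766) and DESeq2 (adjusted p = 0.104). Hist1h2ap shares 92.35% of its 91-base windows, the read length, with another member, so reads that fit more than 1 member make its count uncertain. Hist1h2ae was at 0.46 ± 0.22 (adjusted p = 0.0752) and did not pass, but it did at 0.72 (adjusted p = 0.0158) without ATV:RSV replicate 1 and at 0.63 (adjusted p = 0.0198) without ATV:4D9 day 1 replicate 3. The summed H2A class therefore overlapped between the groups, at 77.3 to 119 CPM and 54.1 to 87.3 CPM, while H2B went from 255 ± 28.7 to 86.9 ± 8.0 CPM.

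H3 and H4 members were scarcer and mixed. Hist1h4d, an H4 gene, was at 24.3, 17.2 and 16.6 CPM in ATV:RSV and 8.83, 9.38 and 9.45 CPM at day 1, a log2 fold change of -1.07 ± 0.15 (adjusted p = 7.76e-06). Hist1h4i, the H4 gene with most UMIs, was at 19.0, 15.6 and 14.2 CPM and at 16.1, 19.2 and 13.5 CPM, with overlapping groups. Hist1h4h was lower by fold change, at -0.79 ± 0.21 (adjusted p = 0.00354). Of the H3 genes, Hist1h3a rose from 1.35, 1.25 and 1.69 CPM to 3.71, 4.48 and 3.87 CPM, by 1.49 ± 0.14 on the log2 scale (adjusted p = 1.29e-07). The next 4 members, like Hist1h1b above, were chosen after their values were seen, here as the extremes of the list and its smallest rise that passed. Hist1h3c, an H3 gene, had 4, 2 and 2 UMIs in ATV:RSV and 33, 57 and 28 at day 1, with no overlap, and the highest fitted log2 fold change of the list, 3.27 ± 0.54. It met the count filter only through the day 1 mice, so it had to be higher there, and its value is a description. The H3 genes Hist1h3d (-2.07 ± 0.38, adjusted p = 0.000149) and Hist2h3c2 (-2.02 ± 0.21, adjusted p = 3.69e-07) had the largest falls, and the H2B gene Hist2h2be had the smallest rise (0.33 ± 0.13, adjusted p = 0.0349). Hist2h3c2 shares 61.94% of its 91-base windows with other members, so reads that fit more than 1 member make its count uncertain. The call of Hist2h2be was lost with library size alone (0.09), without ATV:RSV replicate 2 or 3 and without ATV:4D9 day 1 replicate 1 or 3. The summed H3 class was at 19.0 ± 2.49 CPM and 13.3 ± 1.59 CPM, and H4 at 50.01 ± 7.68 CPM and 36.6 ± 3.93 CPM.

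Over the list, 45 members had enough UMIs to test, and the other 13 held at most 123 UMIs each. At day 1 against ATV:RSV, 34 of the 45 passed an adjusted p of 0.05, against 69.2% of all genes tested. Of these, 16 were higher, where the background was 34.7% of genes, and 18 were lower, where it was 34.6%, so the share of members that passed was near that of genes in general. The H3 gene Hist1h3c and the H4 gene Hist1h4b met the count filter only through the day 1 mice, so they had to be higher there, and of the other 43 members 14 were higher and 18 lower. Scaling by library size alone gave 10 higher and 19 lower (3690 and 6959 of 14260 genes), with the median of all genes tested at -0.29 in log2 fold change in place of -0.05. With TMM scaling the median log2 fold change of the members tested was 0.19, and it turned negative with library size alone (-0.05), with cells thinned to 1 depth (-0.11, 38 members) and without list cells (-0.14, 42 members). Linker genes gave 2 higher and 3 lower of 5, and core genes 14 higher and 15 lower of 40. By core class, 4 H2A genes were higher and 3 lower of 10 tested, 5 H2B higher and 5 lower of 12, 3 H3 higher and 3 lower of 8, and 2 H4 higher and 4 lower of 10.

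By abundance, of the 12 members with most UMIs, 9 were lower (against 34.6% of all genes), 1 was higher (against 34.7%) and 2 did not pass. Of the other 33 tested, 15 were higher and 9 lower. The 15 include Hist1h3c and Hist1h4b, which met the count filter only through the day 1 mice and so had to be higher. The split by abundance is a description, and no test of it was made.

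**Figure D2:**
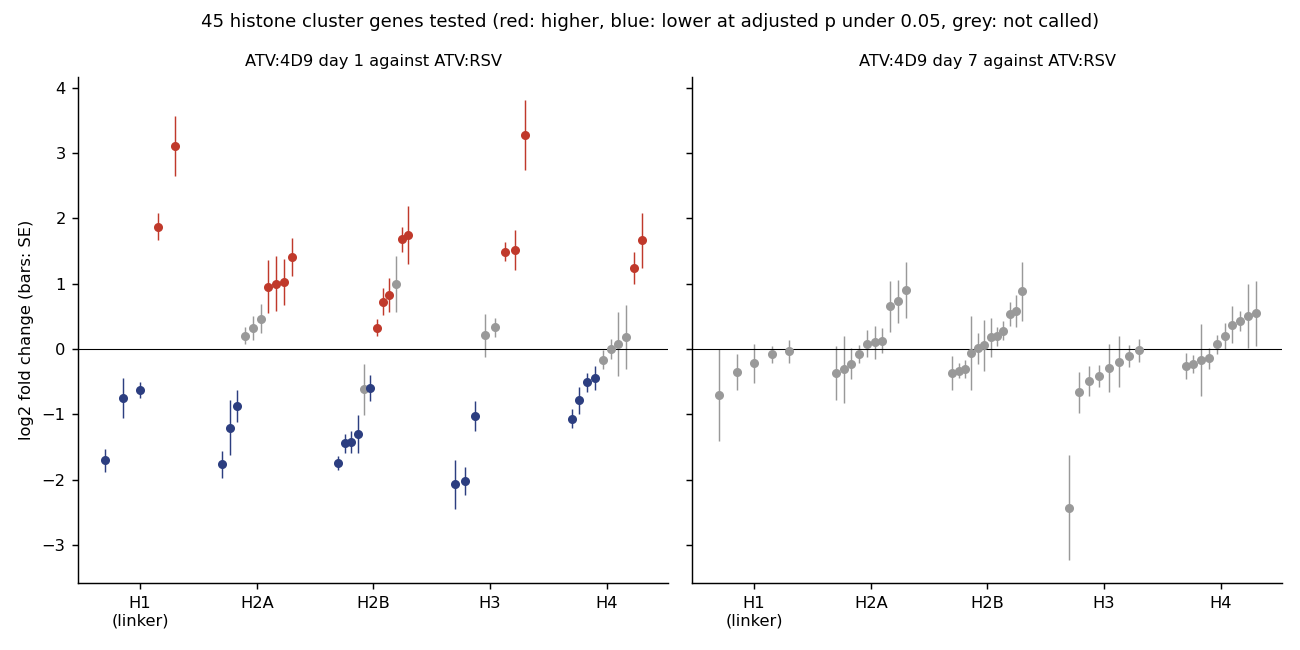
Log2 fold change with its standard error for the 45 tested members, grouped as H1, H2A, H2B, H3 and H4, at day 1 against ATV:RSV and at day 7 against ATV:RSV. At day 1 the members spread from -2.07 to 3.27 in log2 fold change with both directions in every class, while at day 7 none passed.

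The annotated end of the transcript also ran with the direction at day 1. Of the 21 tested members whose transcript runs more than 100 bases past the hairpin, 14 were lower and 1 was higher, where 34.6% of all genes were lower and 34.7% higher. Of the 14 that end within 100 bases of it, 3 were lower and 8 higher. The 8 include Hist1h3c and Hist1h4b, which met the count filter only through the day 1 mice and so had to be higher. Of the 6 with no hairpin and a transcript that ends within 100 bases of the stop codon, 5 were higher and 0 lower, and of the 4 with no hairpin and a longer transcript, 2 were higher and 1 lower. Several of those 6, Hist1h1b among them, are annotated to end at the stop codon itself. Their true ends are not known, so their place in that group may reflect the annotation alone. The limit of 100 bases was chosen after the values were seen, so no test is given. A poly(A) signal AATAAA past the stop codon was present in 16 tested members, of which 10 were lower and 2 higher, and absent in 29, of which 8 were lower and 14 higher. Hist1h3c and Hist1h4b, which had to be higher, are both among those 14. Of the 12 members with most UMIs, 9 run more than 100 bases past the hairpin. Outside those 12, members over 100 bases past the hairpin gave 7 lower and 1 higher of 12 tested, and the remaining members 2 lower and 14 higher of 21. Hist1h3c and Hist1h4b are again among the 14 that were higher.

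**Figure D3:**
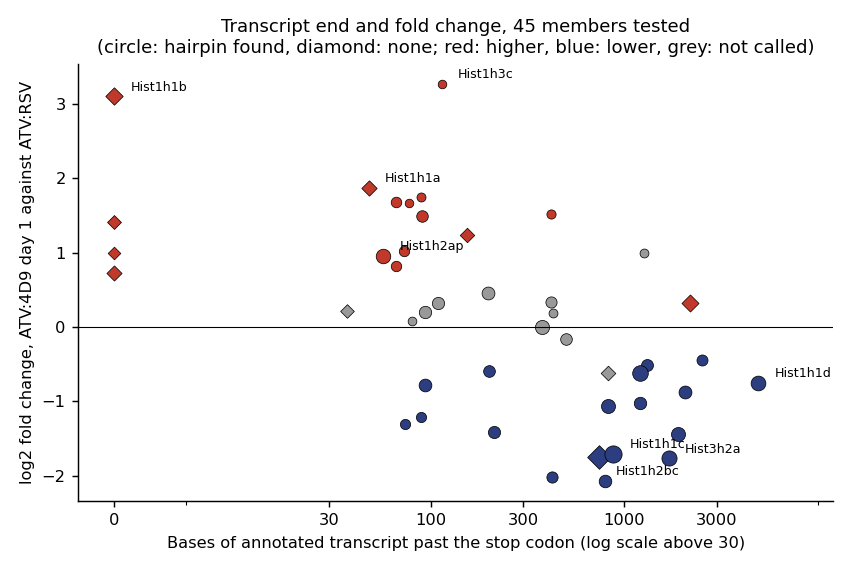
Log2 fold change at day 1 against ATV:RSV (vertical) against the bases of annotated transcript past the stop codon (horizontal) for the tested members. Circles have an exact hairpin in the annotated transcript and diamonds have none there, and larger symbols hold more UMIs. Long transcripts such as Hist1h1c, Hist3h2a and Hist1h2be lie below 0, and short ones such as Hist1h1a and Hist1h3a lie above it. Not all members do so. Hist2h2be, with 2192 bases past the stop codon, lies above 0, and Hist1h4h, with 93, lies below it. Hist1h3c and Hist1h4b met the count filter only through the day 1 mice, so they had to lie above 0.

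The fall in the summed members was also seen per cell. Linker genes gave 2.53 to 2.82 UMIs per cell in ATV:RSV mice and 1.36 to 1.65 at day 1, and core genes 2.36 to 3.18 and 1.38 to 2.00, although the day 1 cells were deeper. With each cell thinned to 3385 UMIs (91839 cells kept and 10204 shallower cells left out), 55.9% ± 4.4 of ATV:RSV cells had a linker UMI against 30.5% ± 0.48 at day 1 (SD, n = 3). For core genes the shares were 63.2% ± 5.1 and 36.2% ± 4.2. Hist1h1c was found in 43.3% ± 4.3 and 17.4% ± 1.1 of thinned cells, and Hist1h2bc in 38.6% ± 4.8 and 12.8% ± 1.6. The linker gene Hist1h1b went the other way, from 0.144% ± 0.065 to 2.19% ± 0.48. No cell type lacks histone genes, so a share from free RNA could not be read here.

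The UMIs of rising and falling members were spread differently over the cells. List cells held 26.6% of all UMIs. Of the UMIs of the 18 members that were lower at day 1, 10.6% to 21.4% lay in list cells, of the 16 that were higher, 27.2% to 96.3%, and of the uncalled members, 19.4% to 37.2%. The 16 include Hist1h3c (96.3%) and Hist1h4b (46.2%), which met the count filter only through the day 1 mice. Without them, the range of the higher members was 27.2% to 91.3%. Most list cells come from the day 1 mice, so these shares and the fold changes are not independent. Hist1h3c had 96.3% of its UMIs in list cells, Hist1h1b 91.3% and Hist1h1a 59.1%, against 12.6% for Hist1h1c and 12.7% for Hist1h2bc. Hist1h1b was concentrated in few cells, with UMIs in 1083 cells, up to 79 in a single cell, and 77.6% of its thinned UMIs in cells with at least 2 G2/M genes, which held 2.90% of all thinned UMIs. Hist1h2ap had up to 87 UMIs in a cell and Hist1h2ae up to 39.

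Thinned cells were split by the lists into 2661 with at least 2 G2/M genes, 17473 with at least 2 S phase genes and fewer than 2 G2/M genes, 26277 with 1 gene of a list and 45428 with none. These are ranges of a gene count and not cell types, and 1087 of the first and 7218 of the second lay at exactly 2 genes. G2/M list cells made up 13.2% ± 3.1 of thinned cells at day 1 and 0.272% ± 0.199 in ATV:RSV, and S phase list cells 63.9% ± 0.71 and 7.47% ± 0.28.

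Hist1h1c and Hist1h2bc were lower at day 1 in each range that could be compared. Raw CPM in these ranges are thinned UMIs per 1000000 thinned UMIs of the cells in a range, given as mean ± SD over mice. In cells with no list gene, Hist1h1c was at 327 ± 39 raw CPM in ATV:RSV and 158 ± 26 at day 1. In S phase list cells it was at 323 ± 37 and 81.5 ± 8.2. Hist1h2bc went from 243 ± 38 to 148 ± 19 in cells with no list gene, and from 226 ± 18 to 58.1 ± 12.3 in S phase list cells. Core genes together went from 450 ± 52 to 294 ± 25 raw CPM with no list gene and from 429 ± 50 to 162 ± 35 in S phase list cells. The day 1 G2/M list cells held 368 ± 54 raw CPM of core and 240 ± 3.2 of linker UMIs, above the day 1 S phase list cells (162 ± 35 and 143 ± 13). In those G2/M list cells Hist1h1b was at 64.0 ± 9.6 raw CPM against 1.77 in day 1 S phase list cells, and Hist1h2ap at 150 ± 46. Only 1 ATV:RSV mouse had at least 20 G2/M list cells (32 cells), with linker genes at 739, core genes at 1828, Hist1h1b at 277 and Hist1h2ap at 619 raw CPM, so ATV:RSV and day 1 could not be compared in that range.

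**Figure D4:**
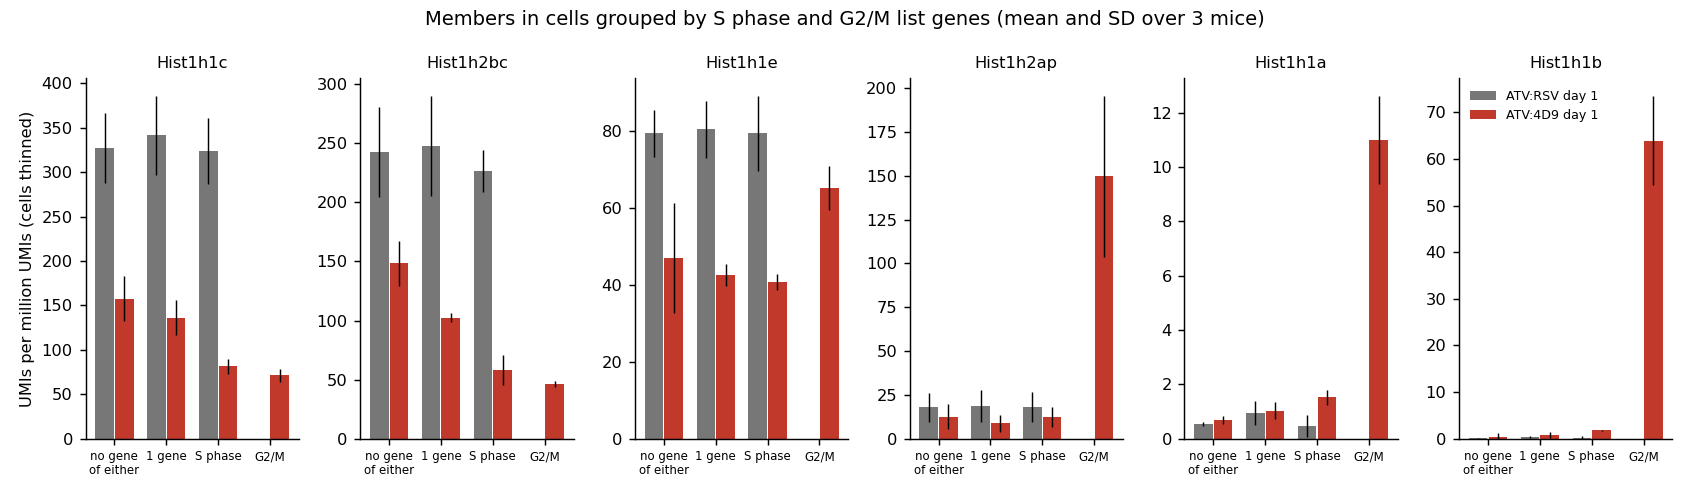
Raw CPM of 6 members in thinned cells with no list gene, with 1 list gene, with S phase genes and with G2/M genes, for ATV:RSV and ATV:4D9 at day 1. Bars start at 0 and are means of the mice, with lines for the SD over mice. The ATV:RSV G2/M bar is not drawn because only 1 mouse had 20 or more such cells. Hist1h1c and Hist1h2bc are lower at day 1 with and without list genes, and Hist1h1b is high in G2/M list cells.

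When the list cells were left out before the sums, 16 of 42 members passed at day 1, against 56.3% of the 13770 genes tested in that fit. Of these, 6 were higher (29.3% of all genes) and 10 lower (26.9%). Linker genes were then at 432 ± 54.9 raw CPM in ATV:RSV and 191 ± 22.9 at day 1, and core genes at 436 ± 46.2 and 218 ± 17.9. From here on, raw CPM are UMIs per 1000000 UMIs of the cells used, with no thinning. Hist1h1c (-1.08), Hist1h2bc (-0.94), Hist1h1e (-0.63), Hist3h2a (-0.86), Hist1h2be (-0.93), Hist1h4d (-1.21) and Hist3h2ba (-1.05) still passed as lower in log2 fold change, and Hist1h3a (0.68) and Hist1h1b (2.16) as higher. Hist2h3c2 was at -0.60 (adjusted p = 0.047) and Hist1h3d at -1.67 (adjusted p = 0.023), and the lowest value was then that of Hist1h2bf, an H2B gene also chosen after its value was seen, at -1.93. Hist1h1a was then at 0.65 (adjusted p = 0.060), Hist1h1d at -0.39 (0.43), Hist1h2ac at -0.55 (0.17) and Hist1h4h at -0.64 (0.075), and Hist1h2ap changed sign to -0.66 (adjusted p = 0.43). Hist1h3c no longer met the count filter and could not be tested.

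The deposited clusters 0, 1 and 2 held 48348, 33853 and 19842 cells. Cluster 2 took 87.3% to 93.5% of the cells of the day 1 mice and 1.12% to 3.23% of those of the others, so cluster and group are largely the same split. The clusters were made from these same cells, and the genes used for them are not given in the sources used here. The following is therefore a description with no test. Over the 15 mice, linker genes were at 419 ± 60 raw CPM in cluster 0, 401 ± 112 in cluster 1 and 250 ± 80 in cluster 2 (SD), and core genes at 397 ± 43, 460 ± 77 and 319 ± 131. The day 1 cells in cluster 0 (351, 383 and 211 cells) overlapped those of ATV:RSV in both sums, with linker at 415 ± 71 against 431 ± 32 and core at 430 ± 53 against 413 ± 40. Hist1h1c in cluster 0 was at 332 ± 20 in ATV:RSV and 306 ± 45 at day 1, and Hist1h2bc at 245 ± 19 and 262 ± 64. In cluster 1, where day 1 had 555, 363 and 180 cells, linker genes were lower at day 1, at 275, 331 and 186 raw CPM against 373, 569 and 402 in ATV:RSV with no overlap. Core genes there were at 373, 400.5 and 326 against 526, 559 and 414. List cells made up 24.4% to 37.2% of these day 1 cells, and without them the groups overlapped, with linker at 309, 391 and 172 against 372, 566 and 404 and core at 395, 458 and 343 against 525, 559 and 415. Hist1h1c in cluster 1 was at 295 ± 66 in ATV:RSV and 154 ± 51 at day 1, and Hist1h2bc at 216 ± 49 and 138 ± 18. In cluster 2, linker genes were at 341 ± 43 in ATV:RSV, 147 ± 5.8 at day 1, 219 ± 51 at day 7, 269 ± 94 at day 14 and 272 ± 23 at day 28. Core genes in cluster 2 were at 461 ± 160, 177 ± 26, 254 ± 52, 330 ± 86 and 373 ± 109 in the same order. The ATV:RSV value rested on 165, 76 and 98 cells, at 645, 351 and 387 raw CPM in the 3 mice, so replicate 1 stood above the other two. Without list cells, the core values of cluster 2 were 277 ± 35 in ATV:RSV, 176 ± 13 at day 1, 227 ± 9.0 at day 7, 248.6 ± 60 at day 14 and 283 ± 39 at day 28, and day 14 replicate 3 went from 427 to 182. The linker values were then 248.6 ± 68, 153 ± 23, 203 ± 47, 213 ± 66 and 212 ± 77. Hist1h1b was at 53.7 ± 26.3 raw CPM in ATV:RSV cells of cluster 2 and 12.1 ± 2.9 at day 1.

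**Figure D5:**
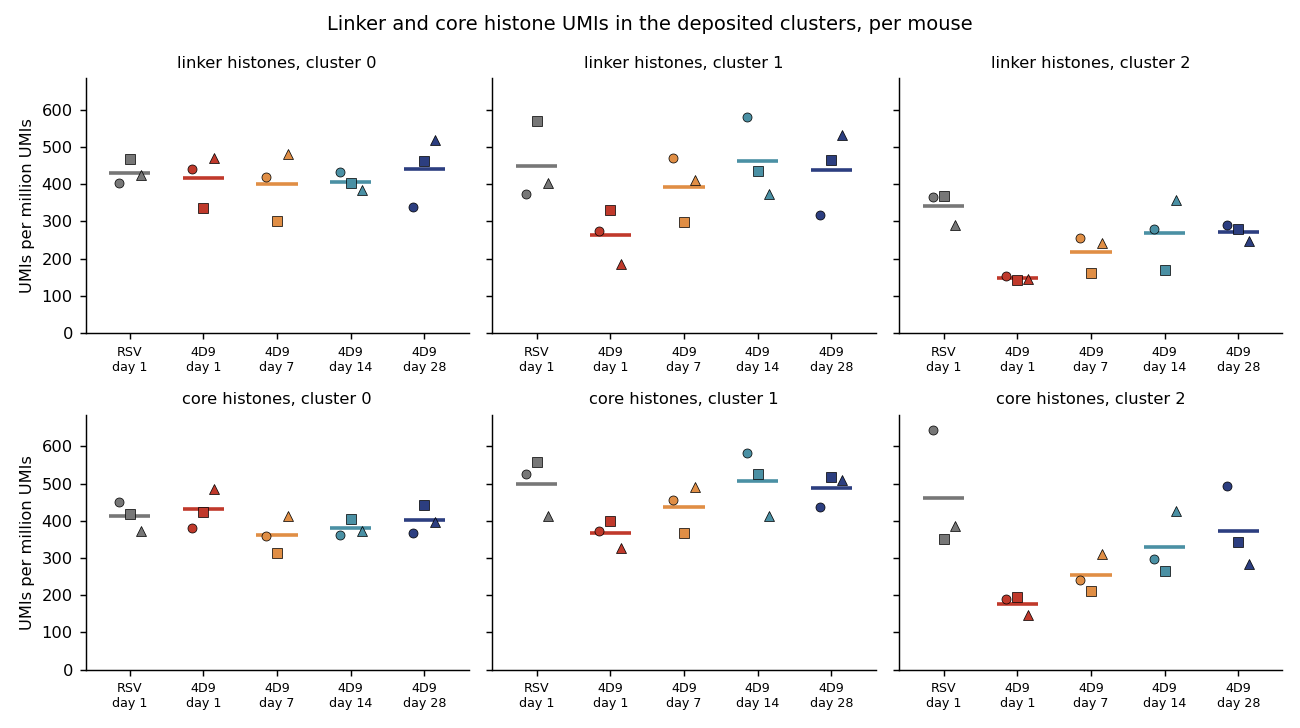
Linker and core histone raw CPM in each mouse, by deposited cluster and group. Points are mice with at least 20 cells in the cluster and lines are group means. In cluster 0 the ATV:RSV and day 1 mice lie in the same range, and in cluster 2 the day 1 mice lie lowest.

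At days 7, 14 and 28, 0 of 45 members differed from ATV:RSV by limma-voom. The background was 3.98% of genes at day 7 (2.99% higher and 0.996% lower), 0.400% at day 14 and 0 at day 28. At an unadjusted p under 0.05 there were 10, 2 and 2 members of 45, against 16.4%, 5.40% and 4.00% of all genes. By edgeR 0 members were called at each day, and by DESeq2 1 at day 7, Hist1h2bc (-0.33, adjusted p = 0.048, with 871 of 14260 genes called), and 0 at the later days. Hist1h1c was at 316, 223 and 344 CPM at day 7, 353, 303 and 275 CPM at day 14 and 231, 329 and 371 CPM at day 28, which overlaps the ATV:RSV mice throughout. Hist1h2bc was at 167, 163 and 194 CPM at day 7, with 2 of the 3 mice below every ATV:RSV mouse (-0.33 ± 0.11, adjusted p = 0.12 by limma-voom). It was at 193, 235 and 196 CPM at day 14 and 186, 241 and 214 CPM at day 28. Hist1h1b was at 0.623, 0.622 and 1.45 CPM at day 7, and Hist1h1a at 0.538, 0.591 and 0.634 CPM.

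ATV:4D9 mice at day 7 differed from those at day 1 in 29 of 45 members, against 66.9% of all genes, with 15 higher (background 33.0%) and 14 lower (33.9%), or 12 lower without Hist1h3c and Hist1h4b, which had to be higher at day 1 to be tested. These are the same day 1 mice as in the comparison with ATV:RSV, so the values are given side by side and not as further support. Hist1h1c was higher at day 7 by 1.66 ± 0.17 on the log2 scale (adjusted p = 4.16e-07), Hist1h2bc by 1.41 ± 0.11 (2.15e-08), Hist3h2a by 1.89 ± 0.21 (8.46e-07) and Hist1h1e by 0.54 ± 0.13 (0.00149). Hist1h1a was lower, at -2.22 ± 0.23 (adjusted p = 3.88e-07), and Hist1h1b at -3.80 ± 0.58 (2.62e-05). Hist1h3c had 0 UMIs in all 3 day 7 mice. Against a floor of 3 UMIs over the group it was at least 24.5-fold lower than at day 1. Of the 12 members with most UMIs, 9 were higher and 0 lower. The F test over the 5 groups called 27 of 45 members, 4 of 5 linker and 23 of 40 core, where the background was 66.5%.

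Genes that handle histones and their mRNAs moved mostly upward at day 1. Of 22 chaperone and mRNA processing genes, 19 were higher, against 34.7% of all genes, and 1 lower, against 34.6%. Slbp, which binds the hairpin, was at 77.3, 76.0 and 69.9 CPM in ATV:RSV and 155, 189 and 161 CPM at day 1, a rise of 1.18 ± 0.07 on the log2 scale (adjusted p = 3.98e-10). Npat, the activator of histone gene transcription, rose by 0.60 ± 0.07 (adjusted p = 2.45e-06). Chaperones that bring new histones to DNA rose further, with Nasp at 2.21, Asf1b at 3.81, Chaf1a at 5.10 and Chaf1b at 5.67. Lsm10, part of the machinery that cuts histone mRNA at the hairpin, was the gene that fell, at -0.12. Among 11 tested histone genes outside the clusters, 8 were higher against the same 34.7%, such as the variant H2afz (1.37) and the linker variant H1fx (1.85). The linker histone H1f0, known from non-dividing cells, was lower at -0.71 ± 0.15 (adjusted p = 0.000663), as were Hist1h1c, Hist1h1e and Hist1h1d. All 20 genes of the S phase list and all 18 of the G2/M list were higher. The genes of the lists in this paragraph were not checked for meeting the count filter only through the day 1 mice. A gene that did so had to be higher there, so these counts are descriptions. At day 7 against ATV:RSV the variant H2afj was still higher, by 0.40 ± 0.05 (adjusted p = 0.000138), after 0.62 at day 1.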

How the data were processed

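Single-cell libraries were made from 15 mice with a poly(A)-primed 3′ kit with UMIs. Per the submitters' processing notes the authors used Cell Ranger 4.0.0 and mm10, while the study's methods name other, later Cell Ranger versions, and the version can change which reads are counted. The deposited matrix held raw UMI counts per gene and cell, and the deposited cell table held the cluster, the mouse and the percent of mitochondrial UMIs per cell. The filters on cells and any removal of doublets are not given in the sources used here. Groups were taken from the labels. The summed level of the microglial marker list is not reported here. A 16th animal that the labels mention was not analysed here. Of 100747 barcode sequences, 1283 (1.27%) occurred in more than 1 library.

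UMI sums of each mouse entered limma-voom (versions: R 4.3.3, limma 3.58.1 and edgeR 4.0.16) with TMM scaling, edgeR's filter (14260 genes kept, minimum count 10, total 15), group means over 15 mice and Benjamini-Hochberg adjustment over all genes at 0.05. The pipeline was run on simulated data in which few genes changed, in both directions. That run does not bear on scaling where most genes change, as at day 1. CPM used TMM-scaled library sizes. Raw CPM within clusters or without list cells used unscaled sums of all UMIs, and raw CPM within ranges used the UMIs of thinned cells. With 3 mice against 3, an exact permutation test of 1 value cannot give p under 0.1, so none was used. Cells were thinned with seed 7. Values are mean ± SD over mice, and intervals between mice cover their spread only. DESeq2 1.42.0 and edgeR's quasi-likelihood test were alternatives, along with RLE, library size alone, no filter, a replicate block, cells left out, thinning and each mouse left out.

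The batch number pairs the mice, since per the labels each batch held all conditions. Deviations from group means correlated at a mean of 0.0334 within batches (30 pairs) and -0.0164 between batches (60 pairs).

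The members, gene lists and limits were chosen with earlier results of these data known. Named were the 12 members with most UMIs, the 3 linker genes with most UMIs (already among them), and up to 3 more called members per later comparison, lowest adjusted p first (Hist3h2ba, Hist1h3a and Hist1h1a). Hist1h1b, Hist1h2bf, Hist1h2bg, Hist1h3c, Hist1h3d, Hist1h4b, Hist2h3c2 and Hist2h2be were chosen after their values were seen. Hist1h2bf, Hist1h2bg and Hist1h4b are not among the named members whose fold changes are counted below. Of the 58 members, 20 share over 50% of their 91-base windows with another member and 8 share none. Hist1h1e and Hist1h2be overlap on 1 strand and Hist3h2a overlaps Trim17, so these counts are uncertain. The same holds for Hist1h2ac, Hist2h2aa1, Hist2h3c1 and Hist2h2bb, which each overlap another gene on their strand. Counts of members with an antisense gene are uncertain too, since strand use in counting is not given in the sources used here. Those members are H2A genes and Hist2h2bb, Hist2h3b and Hist1h4b. Positions are from GENCODE M21 (mm10), 1-based, and promoters from RefSeq.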

Additional observations from a re-analysis of the deposited data

Results flagged for a closer look

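The change from day 1 to day 7 within ATV:4D9 mice passed in 29 of 45 members (66.9% of all genes), 16 of them among the 20 named, by limma-voom's adjusted p of 0.05. The test compares ATV:4D9 mice of 2 days, and since controls were taken at day 1 alone, time since dosing and antibody cannot be told apart. As log2 fold changes, of these 16 the linker genes were at 1.66 (Hist1h1c), 0.54 (Hist1h1e), -2.22 (Hist1h1a) and -3.80 (Hist1h1b). The H2A and H2B genes were at 1.41 (Hist1h2bc), 1.89 (Hist3h2a), 1.14 (Hist1h2be), 0.64 (Hist1h2ac) and 1.70 (Hist3h2ba). The H3 genes were at -1.51 (Hist1h3a), -5.70 (Hist1h3c), 1.40 (Hist1h3d) and 1.61 (Hist2h3c2), and the H4 genes at 0.44 (Hist1h4i), 0.84 (Hist1h4d) and 0.98 (Hist1h4h). The value of Hist1h3c depends on the prior count, since all 3 day 7 mice were at 0 UMIs, and the bound in the report is to be read in its place. It met the count filter only through the day 1 mice, so its call is a description and not support. Hist1h4i was at 0.24 (adjusted p = 0.17) without ATV:4D9 day 7 replicate 3 and at 0.32 (adjusted p = 0.0781) without ATV:4D9 day 1 replicate 3. Hist1h2ac lost its call without ATV:4D9 day 1 replicate 2 or 3 or day 7 replicate 1 or 3, with values from 0.45 to 0.68. Without list cells, Hist1h3c could not be tested, and 5 of the other 15 lost the call, Hist1h2ac at 0.32 (adjusted p = 0.453), Hist1h4i at 0.41 (adjusted p = 0.0721), Hist1h1b at -0.88 (adjusted p = 0.0738), Hist1h3d at 0.98 (adjusted p = 0.189) and Hist2h3c2 at 0.21 (adjusted p = 0.510).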

How the results depend on the processing

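Of 1590 alternative values for 100 named fold changes, 1545 kept their side of the threshold (93 of these changed sign while not called), 37 lost and 6 gained the call, and 2 reversed. Leaving out list cells reversed Hist1h2ap, to -0.66 at day 1 and to 1.68 (adjusted p = 0.041) at day 7 against day 1, and left 16 members called at day 1, 18 at day 7 against day 1 (12 higher and 6 lower) and 15 by the F test, where 56.3%, 53.6% and 53.7% of 13770 genes were called. The cause was not tested. At day 7 against ATV:RSV, library size alone and DESeq2 each called 1 member (Hist1h2bc, -0.43 and -0.33), and leaving out 1 mouse called 0 to 1 (Hist1h2bg, 0.73, adjusted p = 0.014, without ATV:4D9 day 7 replicate 2, named after its value was seen). Day 1 counts ran from 28 to 37 with 1 mouse left out, of 48 to 49 members tested, with 64.1% to 66.1% of all genes called.

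Shares of cells depended on the depth and on the minimum of UMIs, and day 1 stayed lowest in each. With no thinning, 75.8%, 59.8%, 72.8%, 74.6% and 75.9% of cells had a core UMI and 65.7%, 50.5%, 63.7%, 67.2% and 67.4% a linker UMI (ATV:RSV, then ATV:4D9 at days 1, 7, 14 and 28). At least 2 thinned UMIs were found in 34.8%, 14.5%, 29.6%, 32.5% and 33.1% of cells for core and 32.0%, 12.4%, 29.1%, 31.8% and 32.2% for linker genes. Linker UMIs were found in 31.9% of day 1 cells without list cells.

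The fit with the replicate block, where the batch pairs the mice, called 32 members at day 1, 30 at day 7 against day 1, 28 by the F test and 0 at later days (10282, 9943, 10117 and, at day 7, 1014 of 14260 genes), and changed no call of a named member.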
